A study of Sus scrofa with 4 samples.

Results

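The SOX genes are a family of transcription factors that bind the minor groove of DNA through a shared HMG box and are sorted into subgroups by the similarity of that box. SoxC factors (SOX4, SOX11) are active in progenitor cells of many developing tissues, SoxD factors (SOX5, SOX6, SOX13) bind DNA without an activation domain of their own and often act beside another SOX factor, and SoxF factors (SOX7, SOX18) are best known from blood and lymph vessels. In skin, SOX2 marks the dermal papilla and Merkel cells of the mouse, SOX21 is needed to keep the mouse hair coat, and SOX18 variants disturb hair and vessels in mice and people.

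The genes described here are the 10 members SOX2, SOX4, SOX5, SOX6, SOX7, SOX11, SOX13, SOX15, SOX18 and SOX21, chosen by name, out of 29837 named genes. SOX9 and SOX10 were set apart beforehand. RNA sequencing was performed on epidermal cells of 2 juvenile pigs, 88R and 95R, that carry H2B-GFP, a green fluorescent histone, in exon 1 of one LGR5 allele and have the other allele unedited, so all 4 libraries come from reporter carriers. The edited line came from clonal fibroblasts by nuclear transfer, and the sources used here do not say whether these pigs were clones or their progeny. Each pig gave 1 library of GFP-high cells (LGR5-high) and 1 library of GFP-negative cells (LGR5-negative), sorted live from hair and epidermis freed by dispase and trypsin, and GFP-low cells were not analysed here. The comparison asks which of these genes differ between the sorted LGR5-high cells and the sorted LGR5-negative cells. The latter are not all the rest of the epidermis, since GFP-low cells were left out.

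The libraries held between 30696803 and 32463362 counts on named genes. LGR5 itself had 4551 and 6224 counts in LGR5-high and 36 and 109 in LGR5-negative. Counts are raw reads per gene, and CPM are counts brought to one library size, with TMM factors, which assume that most genes do not differ. All genes were tested together in edgeR by quasi-likelihood, and a gene with a Benjamini-Hochberg adjusted p under 0.05 over all tested genes was called higher or lower in LGR5-high. With 2 libraries per population the spread of a gene is that between 2 pigs. The edgeR fit draws this spread toward a trend over all tested genes, so the p-values also rest on other genes. In sorted bulk RNA, fewer cells of a type and less RNA per cell cannot be told apart.

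Of the 10 genes, 8 passed the filter on low counts. SOX4 and SOX13 were higher in LGR5-high, SOX5, SOX6, SOX7, SOX15 and SOX21 were lower, SOX18 was not called, and SOX2 and SOX11 had too few counts to be tested. The background for these calls is that 22.7% of all 15980 tested genes were higher and 22.0% were lower, beside 2 and 5 of the 8 tested SOX genes. The share of higher SOX genes was thus near the background and the share of lower ones above it, for genes chosen with earlier results known. The median log2 fold change of the 8 tested genes was -1.47, beside 0.015 for all tested genes. In each of the 7 called genes both LGR5-high libraries lay on the same side of both LGR5-negative libraries. With 2 libraries per population a call nearly requires this, and the share of all genes that separate was not counted. The separation thus adds nothing to the calls. Summed over the 10 genes, LGR5-high held 443 CPM in pig 88R and 431 CPM in pig 95R, and LGR5-negative held 638 and 555 CPM.

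**Figure D1:**
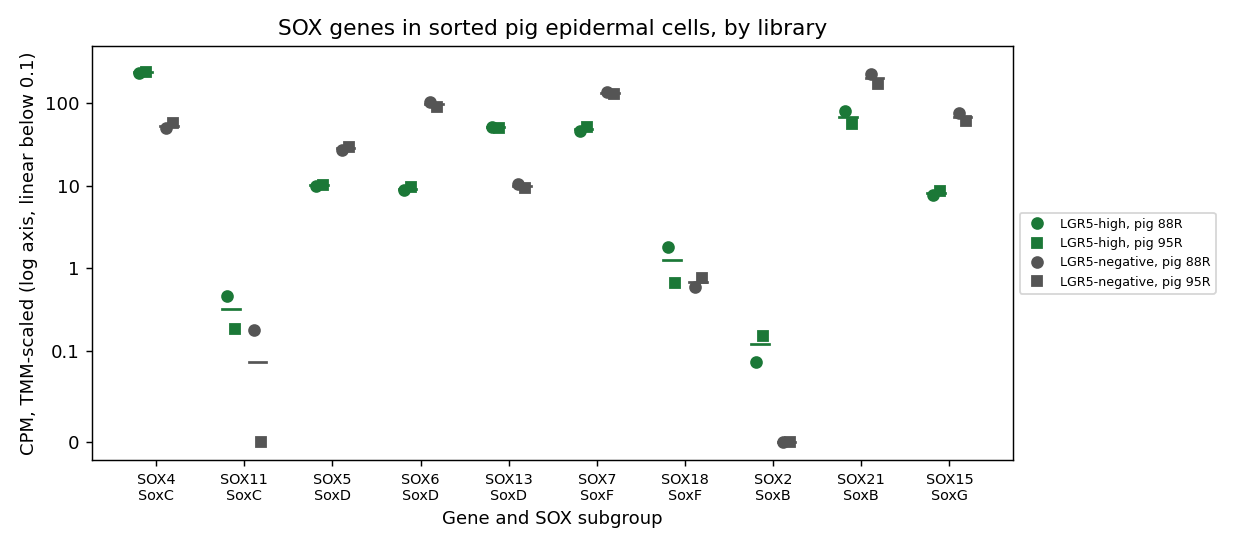
CPM (TMM-scaled, log axis that is linear below 0.1) of the 10 SOX genes in the 4 libraries, green for LGR5-high and grey for LGR5-negative, circles for pig 88R and squares for pig 95R, with short lines at the mean of each population. SOX4 and SOX13 sit higher in LGR5-high, SOX5, SOX6, SOX7, SOX21 and SOX15 sit lower, the SOX18 libraries overlap, and SOX2 is at 0 in both LGR5-negative libraries.

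Among the SoxC genes, SOX4 had 8094 counts (88R) and 7962 counts (95R) in LGR5-high, against 1423 and 1736 in LGR5-negative. Both LGR5-high libraries were far above both LGR5-negative libraries, and the pigs differed little. In CPM, SOX4 had 238 ± 3.94 (SD over 2 pigs) in LGR5-high and 53.7 ± 5.31 in LGR5-negative. Its log2 fold change was 2.15 (standard error 0.0978, 95% interval 1.91 to 2.39, adjusted p = 8.8e-05). In counts scaled within each pig SOX4 was 4.7 times higher for 88R and 4.2 times for 95R. By p-value SOX4 ranked 114 among the 3632 higher genes.

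SOX11, the close relative of SOX4, was at the edge of detection. LGR5-high gave 16 counts (88R) and 6 counts (95R), against 5 and 0 in LGR5-negative. In CPM the populations did not overlap, but for 88R the ratio of 2.65 had a 95% counting interval of 0.929 to 9.26, which includes equal levels. For 95R, with 0 counts in LGR5-negative, the lower end of the interval of the ratio was 1.08. When all genes with at least 1 count were kept, SOX11 was not called (adjusted p = 0.27 among 23144 genes).

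The SoxD genes moved in opposite directions. SOX13, which has a role in gamma-delta T cells, had 1788 counts (88R) and 1679 counts (95R) in LGR5-high, against 302 and 281 in LGR5-negative. Its CPM was 51.4 ± 0.839 in LGR5-high and 9.95 ± 0.918 in LGR5-negative, and its log2 fold change was 2.37 (standard error 0.117, 95% interval 2.08 to 2.66, adjusted p = 0.000102). SOX13 had the larger fold change of the 2 higher genes, 5.17-fold beside 4.44-fold for SOX4, and the intervals of these log2 fold changes overlapped.

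SOX6, a factor of red blood cell, muscle and cartilage development, showed the largest change of the 8 tested genes. It had 305 and 319 counts in LGR5-high and 2999 and 2771 in LGR5-negative, in the order of pigs 88R and 95R. The 2 pigs gave nearly the same counts within each population. The CPM was 9.26 ± 0.554 in LGR5-high and 98.5 ± 9.58 in LGR5-negative, a log2 fold change of -3.41 (standard error 0.119, 95% interval -3.70 to -3.12, adjusted p = 5.65e-05), or 10.6-fold lower. Among the 3508 lower genes SOX6 ranked 17 by p-value and 113 by fold change.

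SOX5, which in melanocytes modulates the action of SOX10, had 347 and 338 counts in LGR5-high and 786 and 905 in LGR5-negative. Its CPM fell from 28.8 ± 1.67 in LGR5-negative to 10.2 ± 0.0972 in LGR5-high, with a log2 fold change of -1.50 (standard error 0.119, 95% interval -1.80 to -1.21, adjusted p = 0.000404). The interval of SOX5 did not overlap that of SOX6.

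Within a library, the share of SoxD reads that falls on each gene does not depend on the scaling between libraries. SOX13 held 73.3% of the reads of SOX5, SOX6 and SOX13 in the LGR5-high library of pig 88R (95% Wilson interval 71.5% to 75.0%) and 71.9% in that of pig 95R. In the LGR5-negative libraries it held 7.39% (6.63% to 8.23%) and 7.10%. SOX6 held 12.5% and 13.7% in LGR5-high and 73.4% and 70.0% in LGR5-negative, so that the gene with the most reads of the 3 was SOX13 in one population and SOX6 in the other. The share of SOX5 differed less, with 14.2% and 14.5% in LGR5-high and 19.2% and 22.9% in LGR5-negative. Transcript lengths were not used here, so these are shares of reads, not of molecules, and the intervals cover counting error only.

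**Figure D2:**
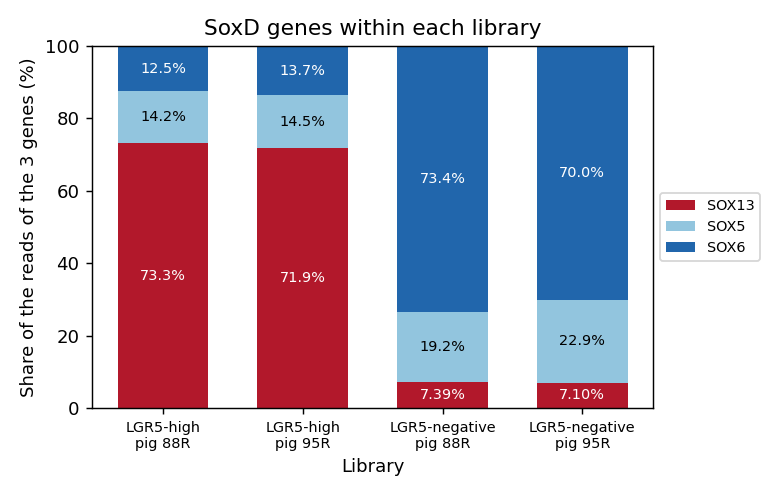
Share of the reads of the SoxD genes SOX13, SOX5 and SOX6 (percent, stacked to 100) in each of the 4 libraries. SOX13 holds 73.3% and 71.9% in the LGR5-high libraries and 7.39% and 7.10% in the LGR5-negative libraries, with SOX6 in the reverse position.

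In the SoxF subgroup, SOX7 was lower and SOX18 was not called. For SOX7, LGR5-high had 1577 counts (88R) and 1731 counts (95R), against 3894 and 3949 in LGR5-negative, with no overlap. Its CPM was 49.1 ± 4.61 in LGR5-high and 134 ± 4.22 in LGR5-negative, with a log2 fold change of -1.44 (standard error 0.0963, 95% interval -1.68 to -1.21, adjusted p = 0.000233).

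SOX18 had 63 and 22 counts in LGR5-high and 17 and 23 in LGR5-negative, so the populations overlapped. The scaled ratio of LGR5-high over LGR5-negative for 88R was 3.07 (95% counting interval 1.78 to 5.60), that for 95R was 0.875 (0.465 to 1.64), and these intervals did not overlap. The log2 fold change over both pigs was 0.88 (standard error 0.554, 95% interval -0.49 to 2.25, adjusted p = 0.245). This value rests on 1 library. Without the LGR5-high library of pig 88R it was -0.037, and without that of pig 95R it was 1.43, and SOX18 was called in neither case. In the RefSeq annotation of Sscrofa11.1 SOX18 overlaps TCEA2, which had 2672 and 2828 counts in LGR5-high and 729 and 983 in LGR5-negative. The strand setting of the counting is not given in the sources used here, so reads of the 2 genes may not have been told apart.

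Markers of endothelial cells were few. As background for the 2 lists read here, 22.7% of all tested genes were higher and 22.0% lower, with a median log2 fold change of 0.015. The summed CPM of 12 endothelial genes lay between 12.5 and 14.3 in LGR5-high and between 27.1 and 29.6 in LGR5-negative. Of the 11 tested, 7 were lower and 1 (TIE1) was higher, with a median log2 fold change of -1.45, also with ROBO4, at 0 in LGR5-high, set at its bound. Of the 11, CDH5, KDR, CLDN5, ERG and ROBO4 had under 10 counts in both LGR5-high libraries and entered the test only through LGR5-negative, which set their direction. With the pig as a block PECAM1 was also lower (adjusted p = 0.00215). The defining vessel genes CDH5 and KDR had 1 to 5 counts in LGR5-high and 17 to 34 in LGR5-negative, and VWF had 49 and 32 counts beside 243 and 262. CDH5, KDR and VWF were thus lower in the same population as SOX7. In the main test TIE1 was higher, and PECAM1, ERG and ESAM were not called. The part of endothelial cells in the SOX7 result was not tested. Of 5 genes known downstream of SOX7 or SOX18 in vessels, VCAM1 was higher, CDH5, CLDN5 and EFNB2 were lower and PROX1 was not called, with a median of -0.53. With the block PROX1 was higher (adjusted p = 0.032).

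SOX2 and SOX21 belong to the SoxB subgroup, in which SOX2 acts mainly as an activator and SOX21 as a repressor. SOX21 gave 2784 counts (88R) and 1871 counts (95R) in LGR5-high, against 6581 and 5256 in LGR5-negative. The CPM was 68.8 ± 17.2 in LGR5-high and 202 ± 40.3 in LGR5-negative, with a log2 fold change of -1.56 (standard error 0.211, 95% interval -2.08 to -1.04, adjusted p = 0.00257). Among the 7 called genes SOX21 had the largest standard error, since pig 88R was above pig 95R in both populations. Within the pigs, however, the log2 ratios were -1.51 and -1.62. In the fit that takes the pig as a block, its standard error was 0.0922 (log2 fold change -1.56, adjusted p = 1.37e-10).

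SOX2 had 3 counts (88R) and 5 counts (95R) in LGR5-high and 0 in both LGR5-negative libraries, where a gene at the floor of 3 counts would have 0.105 CPM in pig 88R and 0.0993 in pig 95R. In LGR5-high it had 0.0873 CPM for 88R and 0.151 CPM for 95R, so that the value for 88R lay below the floor of its LGR5-negative library. SOX2 was not called when all genes with at least 1 count were kept (adjusted p = 0.11).

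Markers of Merkel cells and of the dermal papilla, the skin sites named above for SOX2, gave mixed values in these libraries. Over all tested genes, 22.7% were higher and 22.0% lower, with a median of 0.015. The summed CPM of 10 Merkel cell markers was 125 and 86.3 in LGR5-high and 5.30 and 6.82 in LGR5-negative. Most of the sum in LGR5-high was KRT8, with 97.8 and 65.6 CPM there and 1.40 and 1.72 in LGR5-negative. Of the 5 tested, KRT8, CHGA, PIEZO2 and SYP were higher and 0 were lower, with a median of 4.08 (KRT18 was not called). CHGA entered the test only through LGR5-high. PIEZO2, whose value is the median, had 9 and 23 counts in LGR5-negative, under the filter minimum of 10 for 88R. The filter thus favoured the higher direction for CHGA and PIEZO2. Among the defining Merkel genes, ATOH1 had 3 and 21 counts in LGR5-high and 0 and 2 in LGR5-negative, KRT20 had 10 and 8 beside 8 and 12, and RAB3C was at 0 in all 4 libraries. The 12 markers of dermal papilla and fibroblasts had 1257 and 1502 summed CPM in LGR5-high and 680 and 374 in LGR5-negative. FBLN1, COL1A2, LOX, THY1 and COL1A1 were higher, PDGFRA, COL3A1, DCN and LUM were lower, and the median was 0.93. PDGFRA and LUM entered the test only through LGR5-negative. CORIN, a dermal papilla gene, had 17 to 23 counts in every library, and ALX4 had 0 or 1. The part of these cells in the few SOX2 counts was not tested.

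SOX15, the only SoxG gene, is known from muscle regeneration and placenta. Only 264 counts (88R) and 290 counts (95R) were found in LGR5-high, against 2186 and 1848 in LGR5-negative. Its CPM was 8.23 ± 0.777 in LGR5-high and 68.9 ± 11.0 in LGR5-negative. The log2 fold change was -3.07 (standard error 0.156, 95% interval -3.45 to -2.68, adjusted p = 0.00011), or 8.37-fold lower. Its interval overlapped that of SOX6, and by p-value SOX15 ranked 83 among the lower genes. SOX15 overlaps MPDU1 in the same annotation, which had 637 to 714 counts in every library and a log2 fold change of -0.08 (adjusted p = 0.562).

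**Figure D3:**
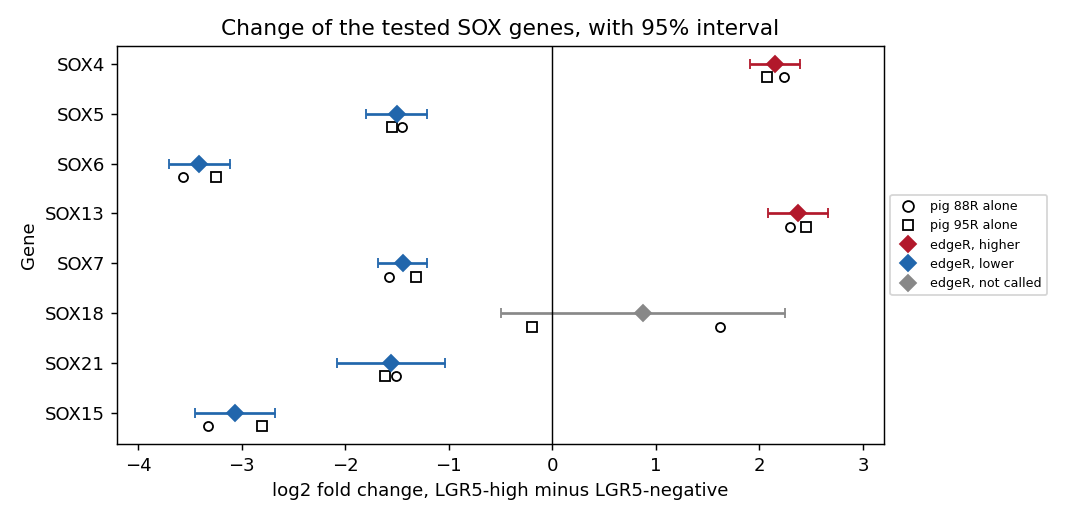
log2 fold change (LGR5-high minus LGR5-negative) of the 8 tested SOX genes from edgeR, with 95% intervals (diamonds, red for higher, blue for lower, grey for not called), and the log2 ratio in each pig alone (open circles for 88R, open squares for 95R). SOX18 is the gene whose interval crosses 0, with pig values of 1.62 and -0.19.

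Set among all called genes, whose log2 fold changes had a median size of 1.50 where higher and 0.86 where lower, SOX4 and SOX13 lay above the first value and all 5 lower SOX genes above the second. Under Bonferroni adjustment, which kept 194 higher and 130 lower genes, SOX4, SOX13, SOX6 and SOX15 were still called, and SOX5, SOX7 and SOX21 were not.

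**Figure D4:**
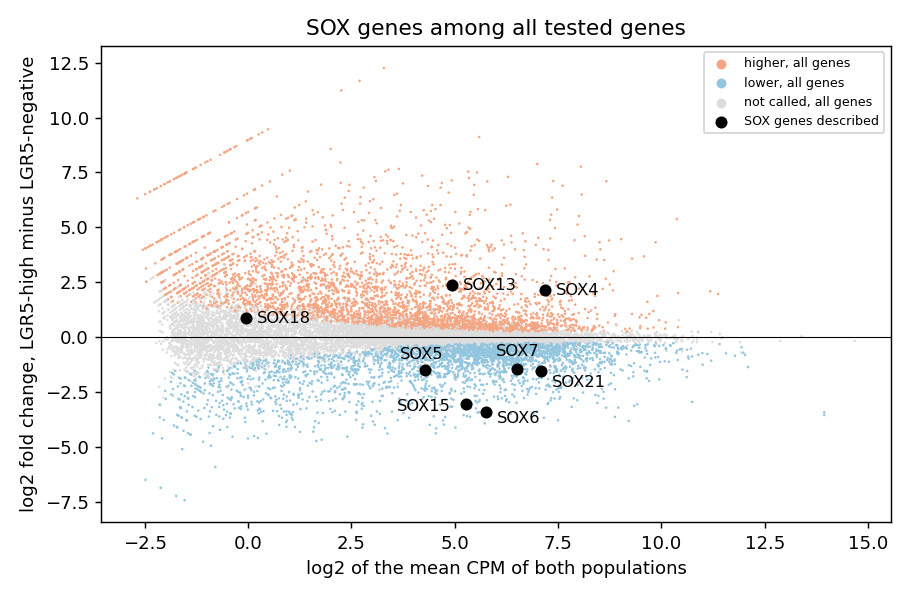
log2 fold change (LGR5-high minus LGR5-negative) against the log2 of the mean CPM of both populations for the 15980 tested genes, in orange for higher, blue for lower and grey for not called, with the 8 tested SOX genes in black. SOX6 and SOX15 lie lowest of the 8, at -3.41 and -3.07, and SOX18 lies among the genes not called.

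Of the other 9 SOX genes looked up, 4 were tested. SOX9 had 16816 and 13927 counts in LGR5-high and 527 and 734 in LGR5-negative, and SOX10, of melanocytes and Schwann cells, had 19 and 23 beside 66 and 174. SOX8 had 75 and 80 counts in LGR5-high and 111 and 129 in LGR5-negative, with a log2 fold change of -0.83 (adjusted p = 0.0316). SOX12, the remaining SoxC gene, had 979 and 722 counts beside 746 and 588 and was not called, with a log2 fold change of 0.14 and a standard error of 0.198 (adjusted p = 0.591). SOX1, SOX3, SOX14 and SOX17 had between 0 and 9 counts in each library, and SOX30 had 0 in all 4. Of all reads on the 19 SOX genes, the 10 described here held 46.0% and 49.1% in LGR5-high and 92.6% and 91.1% in LGR5-negative, while SOX9 held 50.7% and 48.1% in LGR5-high and 2.68% and 3.99% in LGR5-negative.

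Genes that work with SOX factors in other tissues were read from lists. Their counts are to be read beside all tested genes, 22.7% higher and 22.0% lower with a median of 0.015. Of 4 genes linked to SoxC factors, TEAD2, a SoxC target in developing tissue, STMN1 and FSCN1 were higher and DCX was not called, with a median of 1.60. TEAD2 had 2070 and 1959 counts in LGR5-high and 284 and 374 in LGR5-negative, a log2 fold change of 2.42 (adjusted p = 0.000143). Of 7 tested cartilage genes, which SOX5 and SOX6 drive together with SOX9 in chondrocytes, 5 were higher and 0 were lower, with a median of 3.53. Of these 5, COL9A3, ACAN and HAPLN1 had under 10 counts in both LGR5-negative libraries and entered the test only through LGR5-high, so their direction was set by the filter, and the count and median support nothing. The others were COL9A2 and COL11A1. COL11A1 had 1788 and 853 counts in LGR5-high beside 59 and 46, while COL2A1, the main cartilage collagen, had 10 to 18 counts in every library and was not called. POU factors pair with SOX factors on DNA, and of the 5 tested, POU3F3 was higher, POU2F2 and POU2F3 were lower and POU2F1 and POU3F1 were not called, with a median of 0.067. With only 5 genes, 1 higher and 2 lower beside 22.7% and 22.0% of all tested genes is no result about them. POU3F3 entered the test only through LGR5-high. POU2F3, an epidermal factor, had 1636 and 1712 counts in LGR5-high and 7563 and 9127 in LGR5-negative, a log2 fold change of -2.51 (adjusted p = 6.71e-05).

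The genes on either side of the 7 called SOX genes were read as well. By gene order in RefSeq Sscrofa11.1, 14 nearest coding neighbours were found, of which 5 were called in the direction of their SOX gene, 1 in the other, 6 were not called and 2 were not tested. With 22.7% of all tested genes higher and 22.0% lower, 6 called of 12 tested neighbours is near the background and is no result about them. SOX13 had both neighbours in its own direction, ETNK2 with a log2 fold change of 2.46 and SNRPE with 0.61. SOX5 stood between ETNK1, which was lower at -0.89, and BCAT1, which was higher at 3.27. Neither neighbour of SOX6 or SOX15 was called, with log2 fold changes of -0.096 for C2H11orf58, -0.86 for CD68 and -0.13 for FXR2, and INSC was not tested.

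The sorted cells could hold other cell types, and their markers moved with the populations. The background for each list below is 22.7% of all tested genes higher and 22.0% lower, with a median of 0.015. The 8 interfollicular epidermis markers had 5473 to 6033 summed CPM in LGR5-high and 56107 to 65308 in LGR5-negative, with 6 lower, led by DSC1, KRTDAP and KRT10, and 2 not called, and a median of -2.38. The 10 hair follicle stem cell markers had 3288 to 4511 summed CPM in LGR5-high and 888 to 1540 in LGR5-negative, with 8 higher, led by TBX1, DKK3 and LHX2, and 2 not called, and a median of 4.06. LGR5 itself, on whose reporter the cells were sorted, is one of the 8, and without it 7 of 9 were higher with a median of 3.51. With the pig as a block KRT15 was also higher (adjusted p = 2.13e-06). CD34 was one of the 8, at 24.6-fold higher. By RT-qPCR, another measure, the paper found neither KRT15 nor CD34 significantly enriched in the sorted pig cells. SOX6, SOX15, SOX21, SOX7 and SOX5 were lower in the population with less epidermal marker RNA. Melanocyte markers had 147 to 170 CPM in LGR5-high and 577 to 944 in LGR5-negative, with 7 of 10 lower and 0 higher and a median of -2.86. With the block 8 were lower and 1 was higher, by DCT (lower, adjusted p = 0.0267) and MITF (higher, adjusted p = 0.0411). OCA2 entered the test only through LGR5-negative, and MLANA, with 10 and 20 counts in LGR5-high, was at the filter minimum there in pig 88R. Most of the melanocyte sum was GPNMB, with 81.7 and 105 CPM in LGR5-high and 490 and 678 in LGR5-negative. The pigs also differed in LGR5-negative, where 88R and 95R had 106 and 500 counts of TYRP1 and 898 and 3631 of PMEL. Of 7 tested immune markers all 7 were lower, with a median of -3.85. PTPRC, CD207 and CD52 entered the test only through LGR5-negative. TYROBP had 11 and 6 counts in LGR5-high, under the filter minimum of 10 for 95R. The filter thus favoured the lower direction for these genes. The summed CPM of the immune markers was 8.42 to 11.0 in LGR5-high and 111 to 160 in LGR5-negative. Of 5 tested Schwann cell markers, NGFR and S100B were higher and ERBB3 was lower, with a median of 0.31, and CDH19 was at 0 in all libraries. The summed CPM of the 8 listed was 248 to 261 in LGR5-high and 324 to 334 in LGR5-negative. ERBB3 alone held 169 to 201 CPM in LGR5-high and 319 to 330 in LGR5-negative, so the sum mostly follows 1 gene. NGFR, in contrast, had 51.1 and 65.1 CPM in LGR5-high and 2.25 and 2.08 in LGR5-negative. The part of these cell types in the SOX results was not tested.

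**Figure D5:**
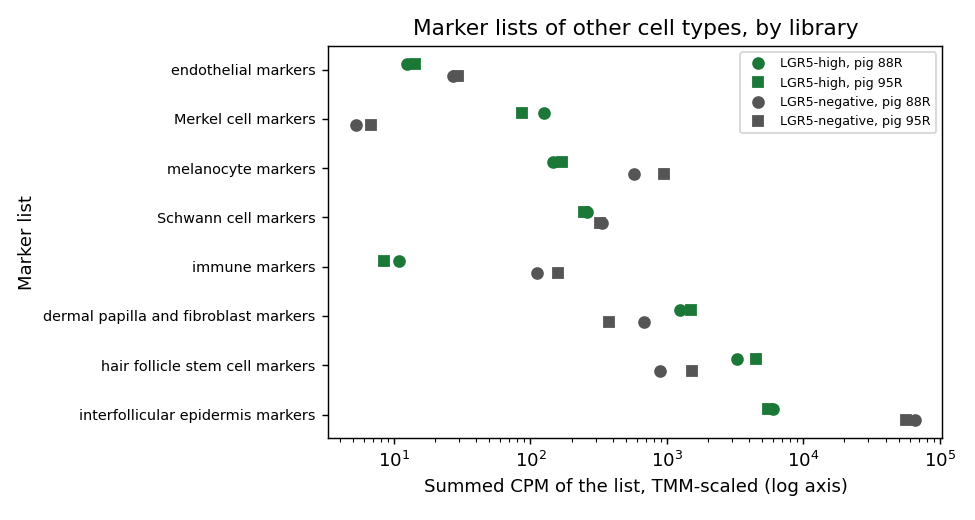
Summed CPM (TMM-scaled, log axis) of 8 marker lists in each library, green for LGR5-high and grey for LGR5-negative, circles for pig 88R and squares for pig 95R. Endothelial markers reach at most 29.6 CPM, and immune markers lie at 8.42 to 11.0 CPM in LGR5-high and 111 to 160 in LGR5-negative.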

How the data were processed

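The 4 libraries were sequenced as paired-end poly(A) libraries per the paper's methods. The files deposited by the authors hold raw counts for each gene symbol and are not normalized. Per the submitters' processing notes, Trimmomatic 0.36, STAR 2.5.2b and featureCounts of Subread 1.5.2 were used. The genome build, annotation and strand setting are not given in the sources used here. One entry without a name, 0.360% to 0.626% of the counts of a library, was left out. All 29837 names matched RefSeq Sscrofa11.1, which was used for names and gene order only.

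Genes were kept by filterByExpr (minimum count 10, minimum total 15). With 2 libraries per population it asks for about 10 counts in at least 2 libraries. Counts were scaled by TMM and compared with edgeR 4.0.16 (R 4.3.3) by a 2-sided quasi-likelihood test. Population was the only term and the prior count was 0.125. Standard errors are the fold change divided by the square root of F. Counting intervals within a pig are exact binomial and those of shares are Wilson intervals. The floor was 3 counts.

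The pig number pairs the libraries, since both populations came from the same animal, and the correlation of deviations within pigs was 0.370. The 16 alternatives were DESeq2 size factors, upper quartile factors and library size only, a filter of 1 count in all or of 10 per library, a replicate block by pig, DESeq2 1.42.0 with and without that block, limma-voom (limma 3.58.1), Student's t-test, Bonferroni adjustment, a prior count of 2, and leaving out each library. The scripts were tested on simulated data. The genes and lists were chosen with earlier results of these data known. Of each list, the 3 called genes with the smallest p were to be named, and further names were added after their values were seen. The rule for neighbouring genes was also set then.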

Additional observations from a re-analysis of the deposited data

Results flagged for a closer look

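SOX18 drew attention because its log2 ratios in the 2 pigs had opposite signs. The log2 ratio of LGR5-high over LGR5-negative was 1.62 in pig 88R (63 against 17 counts) and -0.19 in pig 95R (22 against 23 counts), where the interval of the ratio, 0.465 to 1.64, includes equal levels. With 1 library for each pig and population, the difference between the pigs was not tested.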

How the results depend on the processing

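In all 16 alternatives SOX4 and SOX13 were called higher and SOX6 was called lower. The 5 lower genes were called in 14 of the 16, and the exceptions left 2. Student's t-test, which the paper's methods name with Benjamini-Hochberg adjustment, kept on log2(CPM + 1) SOX5 and SOX6. Bonferroni adjustment, which the paper's results name for the pig comparison, kept SOX6 and SOX15. In the t-test the log2 fold change was -2.92 for SOX15 (adjusted p = 0.0512), -1.43 for SOX7 (0.0529) and -1.55 for SOX21 (0.113), and with Bonferroni, which leaves the fold changes as they were, the adjusted p was 0.337 for SOX5, 0.13 for SOX7 and 1 for SOX21. The cause of the lost calls was not tested. SOX18 was called in none, with adjusted p between 0.0854 and 1, and leaving out 1 library at a time gave -0.037 to 1.43, reversed only without the LGR5-high library of 88R. Without 1 library at a time, the log2 fold change lay between -3.51 and -3.31 for SOX6, between -3.23 and -2.90 for SOX15 and between -1.85 and -1.32 for SOX21. The replicate block changed the call of none of the 8 tested SOX genes and of 5 genes of the lists (PECAM1, PROX1, DCT, MITF and KRT15), raised the calls over all genes to 4562 higher and 4342 lower, and gave 0.77 for SOX18 (adjusted p = 0.161).

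The main test called 3632 genes higher and 3508 lower. With library size only these were 5473 and 2326, and the median log2 fold change of all genes went from 0.015 to 0.24, while SOX5, SOX7 and SOX21 were still called lower at -1.28, -1.22 and -1.33. The t-test called 544 and 502 genes and Bonferroni 194 and 130. The paper reports larger counts of genes after Bonferroni adjustment, and the cause of this difference was not tested. Without the LGR5-high library of pig 88R 2340 genes were higher, and without that of pig 95R 2279 were higher and 2139 lower. Levels were not compared between genes, since no transcript lengths were used, so the order of levels was not run. SOX2 and SOX11 had 0 to 16 counts per library, too few to pass the filter.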
